A study of Mus musculus with 4 samples.

Results

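IMP2, the RNA-binding protein encoded by Igf2bp2, was mapped on RNA in embryonic mouse brain by HITS-CLIP, in which ultraviolet light joins a protein to the RNA it touches and the joined fragments are immunoprecipitated and sequenced. The genes described here are those with a cluster (a peak of overlapping tags) upstream of the stop codon. They were chosen by position: a cluster was taken when its midpoint lay in a deposited coding sequence (CDS) or 5' UTR interval and in no 3' UTR interval. This gave 107 of 1828 clusters (5.85%), 99 in the CDS and 8 in a 5' UTR, and 72 of 761 listed genes (9.46%). Because position chose them, their place in the transcript is a description and not a finding. The RNA came from whole brains of Swiss Webster embryos at E14, with no genotype or treatment that differed between libraries. The titles carry the letter R in 2 of the 4 libraries and M in the other two. IMP2 was pulled down with antibodies raised in mouse or rabbit, and no label says which letter stands for which. The authors deposited a single cluster list with no values of separate libraries, and how the 4 libraries entered it is not stated, so no value below has a replicate error and no test was made. No control immunoprecipitation and no measure of RNA abundance was analysed here, so tighter contact and more RNA cannot be told apart.

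IGF2BP proteins bind messenger RNA in cytoplasmic granules, where they are known to stabilise transcripts, hold back their translation or accompany them along axons. Most known contacts lie in 3' UTRs. The coding region is the classic site for a few targets of the family: IMP1 was first described as the protein that shields the coding-region instability determinant of the Myc transcript, and contacts in the coding parts of Btrc and the multidrug transporter transcript are also known. A protein that sits in the CDS meets elongating ribosomes, unlike one in the 3' UTR.

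By their medians, clusters upstream of the stop codon were lower than those in 3' UTRs, though the values overlapped. The height of a cluster, read here as its largest number of overlapping tags, had a median of 26 in the CDS (interquartile range 22 to 32, full range 18 to 48) and of 26 in 5' UTRs (full range 19 to 37). The 1721 clusters in 3' UTRs had a median height of 30 (interquartile range 25 to 39, full range 18 to 107). The interquartile ranges overlap, and no CDS or 5' UTR cluster was taller than 48. Of the 107 clusters, 31 (29.0%, exact 95% binomial interval 20.6 to 38.5, which covers counting error only) were taller than 30, the median height of all clusters, against 46.9% of all clusters. The authors' fold of the height, whose reference level the file does not define, had a median of 4.68 for the 107 clusters and 5.45 in 3' UTRs. It lay above 5.4, the median of all clusters, in 36 of 107 (33.6%), against 49.9% of all clusters. The median width was 42 bases in the CDS, 65.5 bases for the 8 clusters in 5' UTRs (29 to 79) and 55 bases in 3' UTRs, so CDS clusters were the narrower and 5' UTR clusters the wider by this measure. The lowest deposited height was 18 and the lowest fold 2, so weaker clusters of either region are not in the list.

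**Figure D1:**
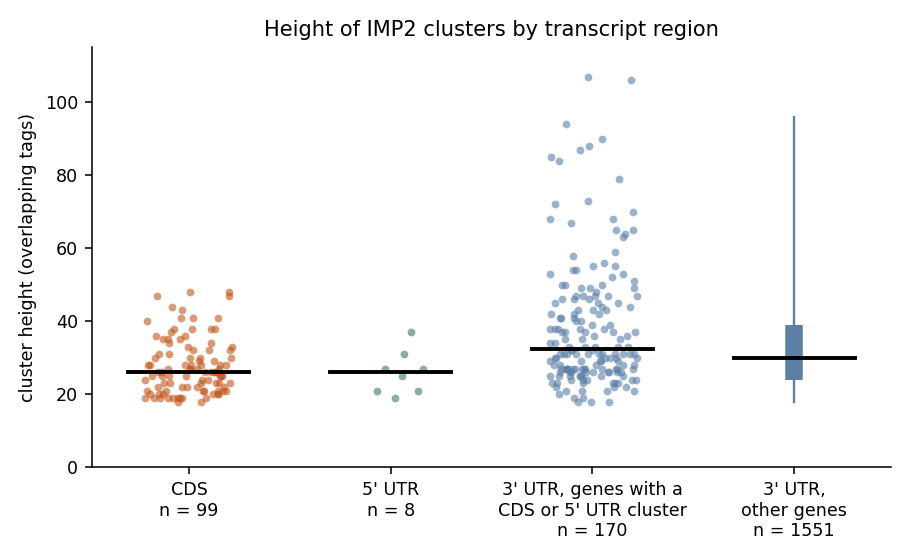
Height of each IMP2 cluster (vertical axis, overlapping tags) in the CDS, in 5' UTRs and in 3' UTRs, with black bars at the medians. The 3' UTR points come from the 40 of the 72 genes that have a 3' UTR cluster. For the 1551 clusters in 3' UTRs of other genes the thin line is the full range and the thick bar the interquartile range. The 99 CDS clusters stay at or below 48, whereas clusters in 3' UTRs reach 107.

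Among genes of translation, Eif4g2 held the most coding clusters and one of the pair of tallest of all 107. Eif4g2 encodes a relative of the scaffold eIF4G that supports cap-independent initiation, and its 7 CDS clusters had heights of 48, 44, 41, 35, 34, 26 and 19. The tallest lay on chromosome 7 at 118217556 to 118217645 (mm9, minus strand), covered 42.5% of a coding interval of 212 bases and had a fold of 6.91. All 7 of these clusters were below the tallest of its 4 clusters in the 3' UTR, which reached 94. Eef2, the elongation factor that moves the ribosome along the codons, had a cluster 41 tags high (fold 4.83) on chromosome 10 at 80640414 to 80640498, in an interval of 215 bases, and a single 3' UTR cluster of height 40 that lay 4461 genomic bases downstream. The other 4 genes of this role had a single CDS cluster and none in the 3' UTR. Naca, a subunit of the nascent-chain complex at the ribosome exit, had a height of 35. Rpl7, a protein of the large ribosomal subunit, had 27. Pabpc1, the cytoplasmic poly(A)-binding protein, had 22. Eef1a1, which brings aminoacyl-tRNA to the ribosome, had 20. Over these 6 genes the 12 clusters had a median height of 34.5, the highest median of the 11 role groups used here, and 7 of the 12 belong to Eif4g2.

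Tubulins and microtubule proteins had 16 clusters in 5 genes, with a median height of 28. Tubb5, a beta-tubulin of progenitors and young neurons, carried clusters from its 5' UTR to its 3' UTR. A 5' UTR cluster of height 27 lay on chromosome 17 at 35975033 to 35975074 (minus strand). Just downstream, a cluster of height 31 at 35974949 to 35975026 ran over the start of the 57-base coding interval, with 28 of its 78 bases in the 5' UTR. Tubb5 thus had tags on either side of and across its start codon. Further CDS clusters had heights of 43 (35973579 to 35973648, fold 5.05, in an interval of 109 bases), 29 and 25, and 8 clusters in the 3' UTR reached 59. Tuba1a, the main alpha-tubulin of migrating neurons, had a CDS cluster of height 28 (fold 5.08, at 98781665 to 98781696 in an interval of 149 bases), a 3' UTR cluster of height 40 and a 5' UTR cluster of height 19 (fold 2.59) at the very start of the transcript, on chromosome 15 at 98783916 to 98783944. The latter began 12 bases before the annotated 5' UTR interval. Tubb2b, a beta-tubulin of the developing cortex, had a CDS cluster of height 28 and none in its 3' UTR.

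Map1b (listed as Mtap1b) encodes the microtubule-associated protein 1B of growing axons, and all 7 of its CDS clusters lay in a single coding interval of 6490 bases on chromosome 13. Their heights were 41, 32, 29, 27, 26, 24 and 22, and the tallest lay at 100205494 to 100205589 on the minus strand. They sat towards the ends of that interval. There were 4 midpoints between 1.8% and 15.1% of its length from the 5' edge and 3 between 75% and 93.0%, with none between. Their folds were 2.32 to 3.95, which implies a reference (height over fold) of 9.48 to 11.0. The 18 clusters in its 3' UTR had implied references of 7.87 to 12.1 and reached a height of 90. Stmn2, a stathmin that loosens microtubules in growth cones, had a cluster of height 28 and fold 3.17 in a coding interval of 60 bases that runs to the stop codon, against 85 for the tallest of its 5 clusters in the 3' UTR.

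**Figure D2:**
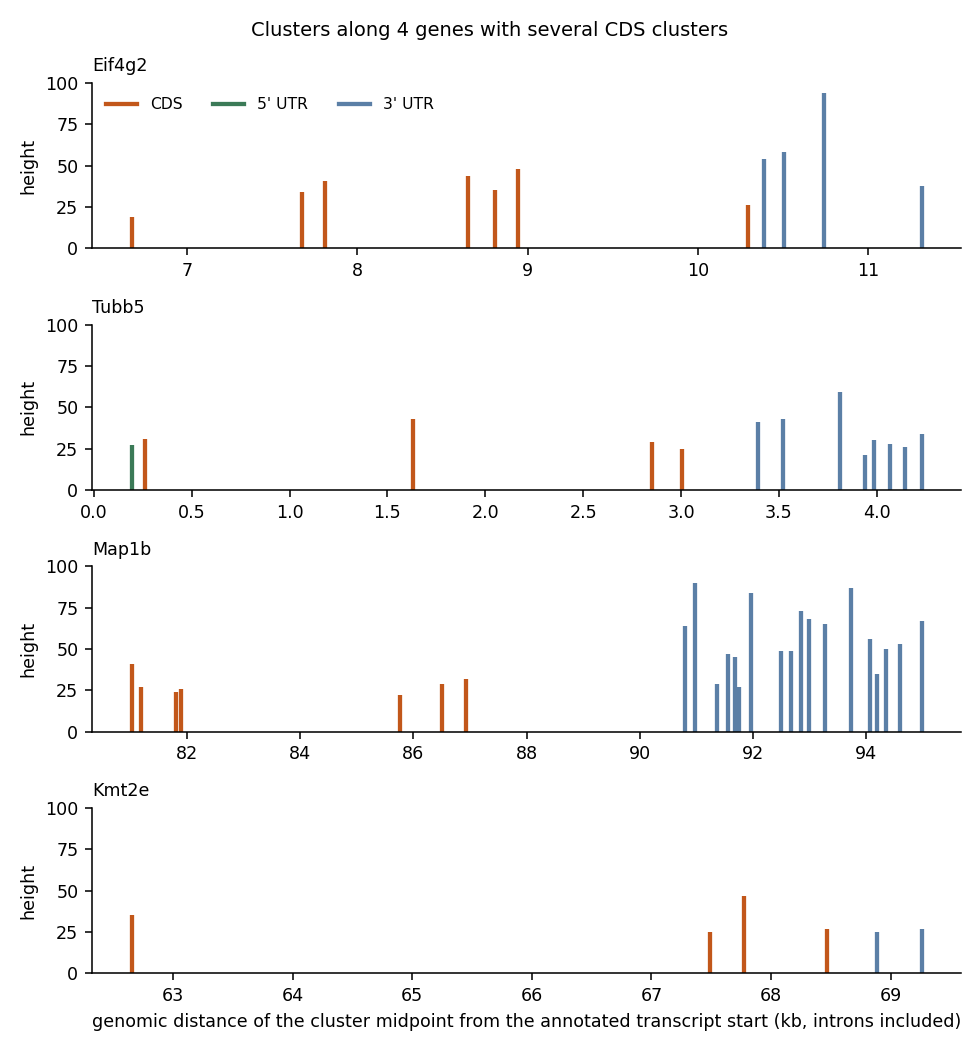
Clusters of Eif4g2, Tubb5, Map1b and Kmt2e as vertical lines at the genomic distance of their midpoint from the annotated transcript start (horizontal axis, kb, introns included, a range of its own for each gene), with line length giving the height. In Map1b the 7 CDS clusters form a group at either end of the long coding interval and are lower than most of the 18 clusters in the 3' UTR, while in Kmt2e the tallest cluster is in the CDS.

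Chromatin and transcriptional co-regulators were the role with the second-largest number of genes, 10, with 16 clusters and a median height of 25. Kmt2e (listed as Mll5), a SET-domain protein that reads methylated histone H3, had CDS clusters of 47, 35, 27 and 25. The tallest had a fold of 10.5 and lay on chromosome 5 at 23007992 to 23008048 in a coding interval of 1524 bases, and both clusters in its 3' UTR were lower (25 and 27). Polr2m (listed as Grinl1a), a subunit of a form of RNA polymerase II, had 3 clusters of heights 30, 30 and 25 between 71331311 and 71331508 on chromosome 9. For 1 of the 107 clusters, in Polr2m, one transcript placed the midpoint in the CDS and another in the 5' UTR. The Polr2m interval was 639 bases long, its largest fold was 3.52, and its single 3' UTR cluster had a height of 25. Wac, an adaptor for histone H2B ubiquitination, had clusters of 28 (fold 4.96, chromosome 18 at 7910686 to 7910747, in an interval of 309 bases) and 19, and none in its 3' UTR. Single CDS clusters were listed in the co-repressor gene Ncor1 (30), in Kmt2a (23, fold 6.69, chromosome 9 at 44627270 to 44627307, listed as Mll1), which methylates histone H3, and in Auts2 (22), a Polycomb-associated protein of neurodevelopment. They were also listed in Qser1 (20, fold 7.88, chromosome 2 at 104629480 to 104629519), which guards DNA from methylation, the ADNP chromatin factor gene Adnp (19), the remodeller subunit gene Bptf (19, fold 5.94, chromosome 11 at 106897103 to 106897156) and the SUMO ligase relative Zmiz1 (18). Of the 10 genes, 5 also had a 3' UTR cluster.

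DNA-binding transcription factors numbered 9 genes with 10 clusters and a median height of 28. Usf3 (listed as Gm608), a helix-loop-helix factor, had a height of 47 on chromosome 16 at 44219989 to 44220027. Its fold of 21.99 was the largest among the 107 clusters and its implied reference of 2.14 the smallest. Zfp462, a zinc-finger protein of chromatin in neural development, had 38 (fold 8.56) on chromosome 4 at 55021253 to 55021297, and its 3 clusters in the 3' UTR reached 44. Zeb2, the zinc-finger and homeodomain repressor of Mowat-Wilson syndrome, had 33 (fold 7.37, at 44852154 to 44852239) and 28 in a coding interval of 1970 bases on chromosome 2 and a single lower cluster of 22 in its 3' UTR. Hivep1, a zinc-finger protein that binds kappa-B sites, had 30. The nuclear factor I genes Nfib (28) and Nfia (21), which time the onset of gliogenesis, and the Wnt effector gene Tcf7l2 (21) had single coding clusters below their 3' UTR maxima of 54, 51 and 50. The zinc-finger gene Zfp207 (27), which acts at kinetochores, and the forkhead gene Foxk2 (26) had no 3' UTR cluster.

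Ubiquitin ligases were led by Huwe1, a very large HECT-domain ligase with roles in neurogenesis, whose only clusters were 4 in the CDS. Their heights were 36, 34, 32 and 24, with the tallest (fold 7.08) on chromosome X at 148354711 to 148354728 in an interval of 610 bases. Ttc3, an E3 ligase gene of the Down syndrome region that restrains neurite growth, had CDS clusters of 36 (fold 5.40, chromosome 16 at 94605586 to 94605640, in an interval of 144 bases) and 26, against 34 for the tallest of 4 in its 3' UTR. The deubiquitinase gene Usp34 had 26, and Tulp4, a tubby-like protein with a SOCS box, had a 5' UTR cluster of 21. RNA-handling proteins had lower clusters, with a median of 23 over 9. The poly(C)-binding protein gene Pcbp2 had 3 (25, 25 and 19, with folds up to 6.60, between 102318664 and 102321227 on chromosome 15, in intervals of 56 to 170 bases), below the taller of 2 in its 3' UTR (38). Prrc2c, a stress-granule protein, had 2 (26 and 23, folds 4.31 and 4.63, between 164610008 and 164612587 on chromosome 1, in intervals of 232 and 204 bases). Chtop (27, in the 5' UTR), the splicing helicase gene Dhx15 (23), the deadenylase gene Cnot6 (20) and the nuclear exporter gene Xpo1 (18) had 1 each.

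Signalling genes held only single clusters, with the lowest median of any role, 22 over 9 genes. Gnai2, an inhibitory G protein subunit, stood above the others with 37 (fold 4.75) on chromosome 9 at 107517969 to 107518013. The rest lay between 20 and 28: Akap9 (28), a scaffold for protein kinase A, Strn3 (25), a striatin of phosphatase 2A complexes, and Inpp5f (23), a phosphoinositide phosphatase. The kinase genes Dyrk1a (22), Gsk3b, Wnk1 and Pak7 (21 each) and the MAGE family gene Maged1 (20) complete the group. Fzd3, a Frizzled receptor of axon guidance, had coding clusters of 38 and 19 in an interval of 1018 bases. The taller (fold 6.15) lay on chromosome 14 at 65854279 to 65854330, and 25 clusters in the 3' UTR reached 55. Rgma, a repulsive guidance ligand, had a coding cluster of 33 on chromosome 7 at 80554497 to 80554530 and none in its 3' UTR.

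Proteins of the endoplasmic reticulum, Golgi, lysosome and transport made up 11 genes with 13 clusters and a median height of 24. Casd1, which acetylates sialic acids in the Golgi, matched Eif4g2 at the top of all coding clusters with 48 (fold 9.32) on chromosome 6 at 4592076 to 4592150, its only cluster. Atp2a2, the SERCA2 calcium pump, had 40 (fold 6.29) on chromosome 5 at 122907145 to 122907187, against 72 in its 3' UTR. The kinesin gene Kif1b had CDS clusters of 32 and 25 (folds 5.39 and 3.75, between 148554896 and 148555603 on chromosome 4) and 10 clusters in the 3' UTR reaching 53. The imprinted hydrolase gene Mest had a pair of CDS clusters of height 21 (folds 2.96 and 2.78) between 30692820 and 30695155 on chromosome 6, in intervals of 137 and 102 bases. The others were the selenoprotein gene Selenot (31, listed as 2810407C02Rik), the oligosaccharyltransferase subunit gene Krtcap2 (26), Golm2 (24, listed as Casc4) and the lysosomal sulfatase gene Ids (22). Mboat2 (20), a lysophospholipid acyltransferase, Alg10b (19), a glucosyltransferase of N-glycan synthesis, and Gde1 (19), a glycerophosphodiesterase, closed this group. Secreted and oxygen- or iron-binding proteins gave 5 genes: Ftl1 (37), Hba-a1 and Hba-a2 (27), Ttr (20) and Col3a1 (19). The globin pair rests on a single shared cluster on chromosome 11 at 32184327 to 32184357. The remaining genes were the uncharacterised transmembrane gene Tmem184c (38, fold 10.3, chromosome 8 at 80120232 to 80120299), BC005537 (38, 31 and 25; the tallest, in the CDS, had fold 5.65 on chromosome 13 at 24901765 to 24901828, in an interval of 135 bases, and its 3' UTR cluster reached 46), Nrep (23, listed as D0H4S114) and Nnat (21).

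**Figure D3:**
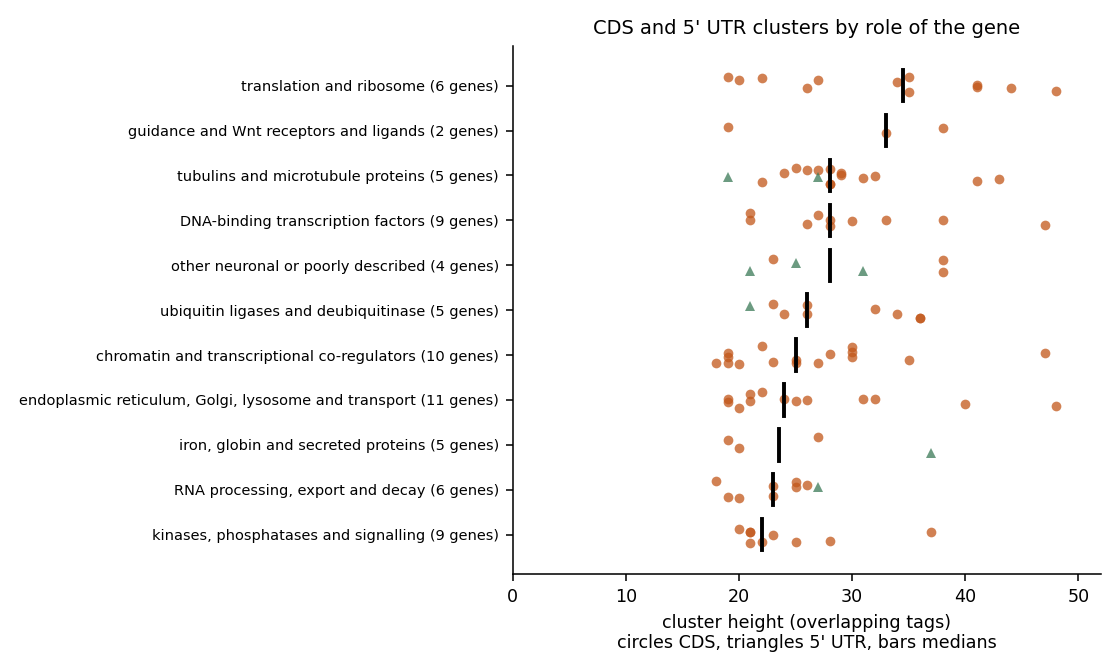
Heights (horizontal axis, overlapping tags) of the 107 CDS (circles) and 5' UTR (triangles) clusters by the role of their gene, with a black bar at each group's median. Medians run from 22 for kinases, phosphatases and signalling to 34.5 for translation and the ribosome, and the points of all groups overlap.

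The 8 clusters of 5' UTRs fell in 7 genes and differed in where they sat. That of Ftl1, the ferritin light chain whose 5' UTR carries the iron-responsive element, was the tallest (37, fold 9.08). It lay on chromosome 7 at 52715037 to 52715079 (minus strand) and began 177 bases into an interval of 255, ending 35 bases before the end of that interval. Nnat, the imprinted proteolipid neuronatin, had a 5' UTR cluster 21 tags high (fold 2.12) on chromosome 2 at 157385868 to 157385942 that ran 18 bases past the end of its 79-base interval. Its tallest cluster in the 3' UTR was 5.10 times as high. BC005537 had a pair of 5' UTR clusters (31 and 25) between 24894417 and 24894624 on chromosome 13 in an interval of 1724 bases. Chtop, which couples transcription to mRNA export (listed as 2500003M10Rik), had 27 (fold 6.32) on chromosome 3 at 90310562 to 90310631, in an interval of 1375 bases. Tulp4 had 21 (fold 4.48) on chromosome 17 at 6138492 to 6138556, near the middle of an interval of 757 bases. With those of Tubb5 and Tuba1a described above, intervals ranged from 48 to 1724 bases.

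Clusters on both sides of the stop codon were found in 40 of the 72 genes (55.6%, exact binomial interval 43.4 to 67.3), while 32 had none in the 3' UTR. Of all listed genes, 95.8% had a 3' UTR cluster, a share that the rule itself separates from these 72, since every gene outside them has one. In 32 of the 40 genes the tallest 3' UTR cluster was the higher one, and the median ratio of the 3' UTR to the coding or 5' UTR maximum was 1.51 (full range 0.574 to 5.10). These maxima were taken over unlike numbers of clusters, 170 in 3' UTRs against 72 upstream, and were not adjusted for this. The ratio was at least 2 in 9 genes: Nnat (107 against 21), Nrep (106 against 23), Ttr (88 against 20), Mest (68 against 21), Stmn2 (85 against 28), Nfia, Tcf7l2, Maged1 (47 against 20) and Map1b. In 8 genes the order was turned: Kmt2e (47 against 27), Zeb2 (33 against 22), Selenot (31 against 23), Polr2m (30 against 25), Prrc2c (26 against 22), Wnk1 (21 against 18), Ttc3 (36 against 34) and Eef2 (41 against 40). The last 3 of these differ by 1 to 3 tags. There were also 8 genes with more clusters upstream of the stop codon than in the 3' UTR: Eif4g2, Kmt2e, BC005537, Polr2m, Pcbp2, Zeb2, Tuba1a and Prrc2c.

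**Figure D4:**
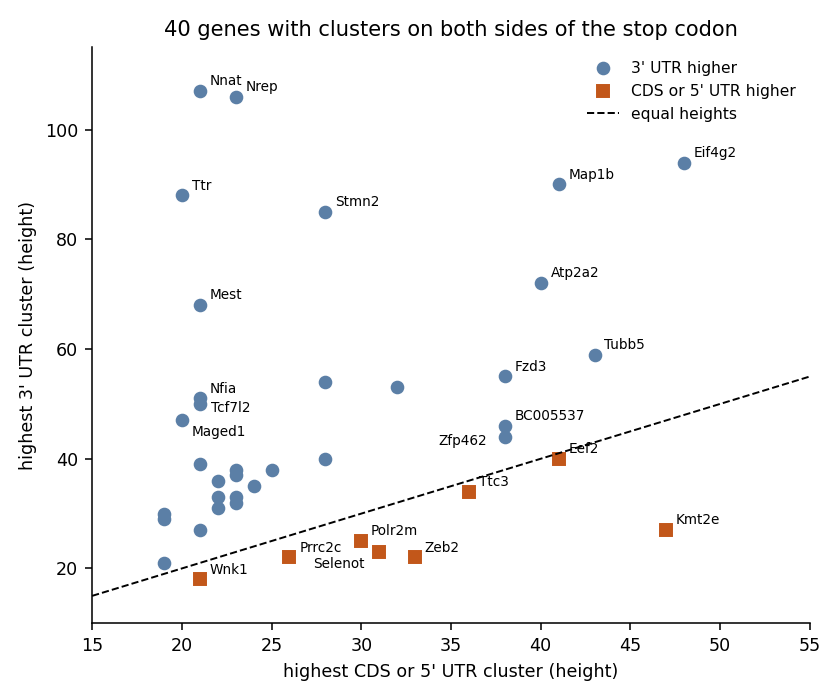
Highest CDS or 5' UTR cluster (horizontal axis) against the highest 3' UTR cluster (vertical axis) of the 40 genes that have both, each point a gene; squares below the dashed line of equal heights are the 8 genes whose upstream cluster is higher. Most points lie above the line, with Nnat, Nrep and Ttr farthest from it.

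The 3' UTR clusters of these 40 genes were a measure that the rule did not use. Their tallest had a median height of 38.5 (interquartile range 30.8 to 54.3), against 31 (26 to 41) in the other 689 genes. They had a median of 2.5 clusters in the 3' UTR against 1 in the others, and their longest 3' UTR intervals had a median of 1724 bases against 1999. The maxima were taken over these unlike numbers of clusters and were not adjusted for this. Over single 3' UTR clusters, the median height was 32.5 for the 170 in these genes and 30 for the 1551 in other genes. The median folds were 5.29 and 5.46. The ranges overlap widely and the differences were not tested. Of the 72 genes, 42 (58.3%) had at least 2 clusters of any region, against 44.9% of all listed genes. The rule largely fixes this count, since each of the 40 genes with both regions has at least 2 clusters. It is therefore no separate sign of more clusters per gene. The 32 genes without a 3' UTR cluster rest on less: 30 of them had a single cluster in all, and Huwe1 and Wac were the exceptions with 4 and 2. Their 33 CDS clusters had a median height of 27 and a median fold of 5.70, against 26 and 4.31 for the 66 CDS clusters of genes with a 3' UTR cluster.

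Coding intervals with a cluster ranged from 37 to 6490 bases, with a median of 212 (interquartile range 126 to 802). Each interval is the coding part of an exon as the authors listed it, and the longest over a cluster's transcripts was taken. There were 24 clusters (24.2%) in 13 genes whose interval was longer than 1000 bases. These were Map1b (6490), Usf3 (6410), Zfp462 (5594), Kmt2a (4237), Qser1 (3676), Adnp (3126), Zeb2 (1970), Kmt2e (1524), Inpp5f (1150), Tubb5 (1058), Alg10b (1056), Ttc3 (1021) and Fzd3 (1018). Among them, Usf3, Zfp462 and Zeb2 are DNA-binding factors and Kmt2a, Qser1, Adnp and Kmt2e chromatin regulators, roles held by 9 and 10 of the 72 genes. At the other end, 40 clusters (40.4%) lay in intervals of at most 150 bases, the shortest in Bptf (37), Kif1b (43), Huwe1 (48), Pcbp2 (56) and Tubb5 (57). Heights were alike, with a median of 26.5 in the long intervals and 26 in the others. How long coding exons are in all transcripts was not analysed here, so a preference for exon size was not tested.

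Within their intervals, the midpoints of CDS clusters had a median position of 57.2% from the 5' edge (interquartile range 33.3 to 76.9). Of the 99, 57 were in the 3' part. Clusters wholly inside their interval numbered 89, and 20 had an end within 5 bases inside an edge. Clusters with facing ends close to an edge came in pairs in 3 genes, a pattern looked for after the values were seen. In Huwe1, an 18-base cluster of height 36 ended exactly at the 3' edge of its interval, and a 15-base cluster of height 34 began 1 base into another interval 861 bases downstream. In Kif1b, a 10-base cluster (25) and a 24-base cluster (32) faced each other across 674 bases. Eif4g2 had 2 pairs, across 90 bases (heights 44 and 35, the latter running 1 base past its edge) and 96 bases (34 and 41). The summed widths in Huwe1 and Kif1b were 33 and 34 bases. No 3' UTR cluster was narrower than 27 bases, whereas 6 CDS clusters were, and all 6 had an end within 5 bases of an edge (Huwe1 and Kif1b with 2 each, Gsk3b and Nfia). Whether single tags ran from one interval into the other is not given in the list.

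**Figure D5:**
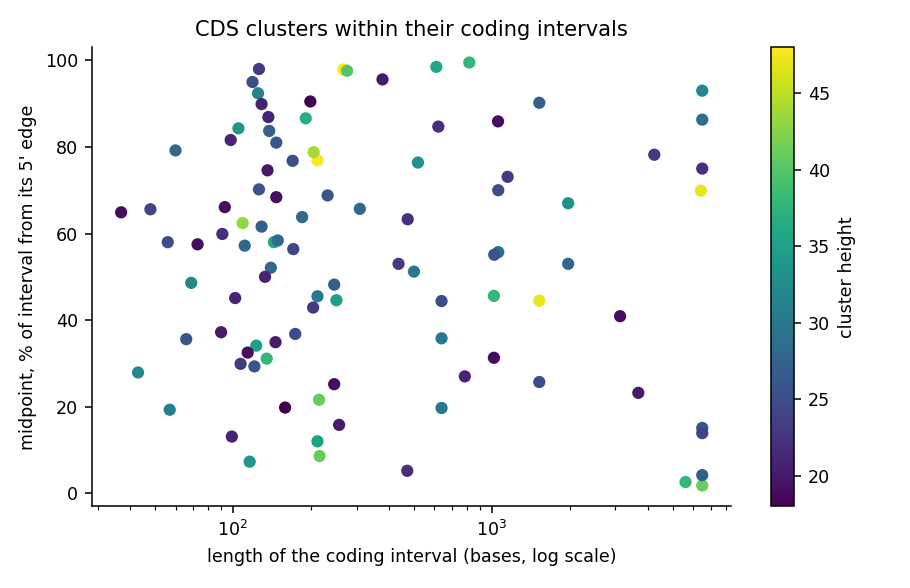
Midpoint of each of the 99 CDS clusters as a percentage of its coding interval from the 5' edge (vertical axis) against the length of that interval (horizontal axis, bases, log scale), coloured by height. Clusters occur at all positions, and those of Map1b at 6490 bases leave the middle of the interval empty.

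Near the stop codon the region of a cluster depends on the midpoint. The list gave each cluster a single region for each transcript. Just inside the rule, 8 CDS clusters ran past the 3' edge of their interval, by 62 of 129 bases in Nrep (height 23) and by 32 of 75 bases in Casd1 (48). The others were Tmem184c (30 bases), Atp2a2 (15), Bptf (14), Selenot (12), Maged1 (7) and Stmn2 (5). The intervals of Nrep, Atp2a2 and Stmn2 meet a listed 3' UTR, so these 3 clusters cross the stop codon. For the other 5 no listed 3' UTR interval of the transcript meets the edge, so whether they cross a stop codon cannot be told. Casd1, Tmem184c and Bptf have no listed 3' UTR interval of the transcript at all. Just outside the rule, 14 clusters with their midpoint in a 3' UTR began upstream of it, by 39 of 82 bases in Map1b (height 64), 96 of 242 in Ttr (88), 10 of 35 in Dhx15 (25) and 99 of 418 in Mest (68). A further 7 clusters were left out because transcripts disagreed on the region. Of these, 4 were in Peg10 (27, 39, 46 and 45, between 4705747 and 4706239 on chromosome 6), an imprinted gene whose longer protein is made by a ribosomal frameshift. The other 3 were in Gpm6b (37), Tcf7l2 (26) and Meis2 (23).

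Where a 3' UTR interval of the same transcript was listed, 16 of 65 CDS clusters (24.6%) lay in the coding interval that runs to the stop codon. Only 3 of the 72 upstream clusters in genes with both regions were within 50 bases of a 3' UTR cluster: in Eif4g2 (4 bases), Nrep (14) and Atp2a2 (44). The median genomic gap was 4226 bases. It includes introns, so the distance along the spliced transcript was not measured.

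Gene lists drawn up around these roles differed in how many of their listed genes had an upstream cluster, against 9.46% of all listed genes. The shares were 5 of 17 listed tubulin and microtubule genes (29.4%, exact binomial interval 10.3 to 56.0), 3 of 6 translation factors (50%, 11.8 to 88.2) and 5 of 19 chromatin regulators (26.3%, 9.15 to 51.2). Shares somewhat above 9.46% were found for 30 RNA-binding protein genes (10.0%), 28 neural transcription factors (14.3%) and 13 ubiquitin genes (15.4%). Below it were 12 matrix genes (8.33%), 15 pumps, channels and transporters (6.67%), 22 traffic and motor genes (4.55%) and 27 receptor and adhesion genes (3.70%). The exact binomial intervals of the tubulin and microtubule genes and of the translation factors lay above 9.46%. Those of the chromatin regulators and of the other lists named so far covered it. All 25 listed actin cytoskeleton genes and all 9 chaperone genes had 3' UTR clusters alone, so 0 had an upstream cluster, with upper limits of 13.7% and 33.6%. These lists were drawn up with earlier results of these data known, so their shares are descriptions and no difference between lists was tested. Of the ferritin and globin genes, 3 of 4 listed ones had an upstream cluster, though Hba-a1 and Hba-a2 share 1 cluster. Rpl7 was the single ribosomal protein gene listed. Myc, Btrc and the pair Abcb1a and Abcb1b, with reported coding-region contacts of the family, were not listed at all (0 of 4).

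Markers of the tissue were present in the list as a whole. Of 12 neuronal markers 7 were listed (Dcx, Elavl3, Gap43, Map2, Nefl, Neurod6 and Stmn2), though not Tubb3, Rbfox3, Snap25, Elavl4 or Nefm. The progenitor markers Ccnd2 and Vim were listed as well. Among upstream clusters, blood, choroid plexus and mesenchymal genes appeared as well. These were 2 of 10 erythroid markers (the globin pair, on 1 shared cluster) and 1 of 7 choroid plexus markers (Ttr). Of 10 meningeal and mesenchymal markers, 1 had such a cluster (Col3a1). None of 8 microglial markers was listed. The part of such cells in these clusters was not tested. Several genes here have near-identical copies or pseudogenes, among them the tubulins, Eef1a1, Rpl7, Naca, Pabpc1, Ftl1 and the alpha-globins. Their heights are less certain, since nothing states how tags that match several places were assigned.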

How the data were processed

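The series holds 4 HITS-CLIP libraries of E14 brain and a single deposited cluster list. Per the submitters' processing notes, Bowtie, FastQC and the mm9 build were used. For peak calling, thresholds, the RefSeq release and pooling, details were not given in the sources used here. Deposited height is a signal (pileup) value and the second deposited score a fold, a ratio with an undefined reference, per the file headers. Library depth is unknown. The 2865 lines were reduced to 1828 clusters with Python 3.11.15 and pandas 2.3.3, and starts were made 1-based. Of 761 symbols, 754 were matched by accession to RefSeq (GRCm38.p6) for current names only, and 1 of the 72 (Kmt2a) by synonym. The region rule was checked on simulated clusters. Members, roles (assigned by hand) and the 22 gene lists were chosen with earlier results of these data known. Members are named with their tallest cluster, except that some items are not reported here; coordinates and folds are given for the 12 genes with the tallest cluster, genes with at least 2, genes with a 5' UTR cluster and the 5 longest and 5 shortest intervals (for genes with several clusters, mainly the tallest). No test was made. The 7 alternatives changed the region rule, height, fold or joining.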

Additional observations from a re-analysis of the deposited data

How the results depend on the processing

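No library could be left out and no paired analysis was possible because the list holds no values of single libraries. Counts and medians were alike (counts within 1.5 times, medians and shares inside the 95% binomial interval of the main value) when clusters had to lie wholly inside an interval (95 clusters, 63 genes), when clusters with a 3' UTR row were kept (114 and 75), when clusters at most 50 bases apart were joined (101 and 70) and with the CDS alone (99 and 68). The requirement of no overlap with a 3' UTR row changed nothing, since the list gives each cluster a single region for each transcript. The 3 clusters that the list shows to cross a stop codon (Nrep, Atp2a2 and Stmn2) carry a CDS row alone. Thresholds mattered. With clusters taller than the median height, 31 clusters in 21 genes were left, with a median height of 37 and a median fold of 6.29. The share of genes with a 3' UTR cluster was then 61.9%, inside the interval of the main value of 55.6%. With a fold above the median, 36 clusters in 31 genes were left, with medians of 31 and 6.80. That share was then 41.9%, outside the interval. A threshold on a scale raises that scale's own median by construction; the cause of the other moves was not tested.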
